A study of Mus musculus with 24 samples.

Results

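Chemokines and chemokine receptors were followed in uteri of immature mice with floxed or conditionally deleted Ctcf, after progesterone in oil or oil alone. Ctcf encodes the chromatin architecture protein CTCF. The members were all rows of the gene table whose symbol names a CC, CXC, CX3C or XC chemokine, one of their numbered receptors or an atypical receptor, leaving out Cxcl15. The rule found 62 members among 22943 genes, and it picked rows by symbol alone. The family itself was chosen with earlier results of these data known. Of these, 34 passed the filter on low values, which asked for at least 1 RPKM in at least 4 libraries. RPKM scales reads to the length of the gene model and to the size of the library, which lets levels of different genes be set side by side. The batch correction shifted the values of this table, so levels near 0 cannot be compared between genes. The samples were whole uteri of female C57bl/6 mice aged 21 days. The knockout genotype is written PgreCre+;Ctcf-f/f (cKO) in the labels: both Ctcf copies are floxed, and a Cre recombinase under the progesterone receptor gene is active in the cells that use that gene, not in every uterine cell. The control genotype, Ctcf-f/f, was made up of littermates with the same floxed Ctcf and no Cre. The progesterone groups were 4 knockout and 4 floxed libraries of uteri taken 6 h after 0.5 mg progesterone in 0.05 ml sesame oil under the skin. The vehicle groups were 8 knockout and 8 floxed libraries of other uteri, taken 6 h after oil alone.

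Chemokines are small secreted or membrane-bound proteins that direct the movement of leukocytes through G protein-coupled receptors, and they are classed by the spacing of their conserved cysteines. Some are made without stimulation and place resident cells in a tissue (Cxcl12, Cxcl14, Ccl21a), while others are induced in inflammation by NF-kappaB or interferon signalling (Ccl2, Ccl5, Cxcl1, Cxcl10). Atypical receptors bind chemokines and remove them without G protein signalling. In the uterus these genes are known for bringing in and holding macrophages, natural killer cells and other leukocytes, whose numbers change with ovarian hormones and pregnancy.

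The libraries came in 2 sequencing batches, per the labels. One had 16 libraries with 4 of every group and is called mixed here. The 8 remaining libraries, all from vehicle uteri and 4 per genotype, made up the batch called vehicle-only. The deposited values had been corrected for batch, which left 6.66% of all values below 0 and gave 4 of the tested members (Ccl8, Cxcl17, Cxcl10 and Ccl22) at least 1 value below 0. Depth, estimated from what 1 read is worth in genes of few reads, ran from 29900000 to 100600000 reads per library. Ctcf was 9.95 ± 0.982 RPKM in knockout progesterone uteri against 26.0 ± 1.05 RPKM in floxed progesterone uteri (SD, n = 4 each; exact permutation test, two-sided, p = 0.0285714, the smallest this design can give). It was 11.5 ± 1.11 RPKM in knockout vehicle uteri against 25.9 ± 2.36 RPKM in floxed vehicle uteri (SD, n = 8 each; exact permutation p = 0.0001554, the smallest possible). The uterine genes Hoxa10 and Hoxa11, the smooth muscle gene Acta2 and the epithelial gene Krt8 had medians of 64.9, 59.4, 369 and 73.3 RPKM. Markers of oviduct stood apart in floxed progesterone 7, knockout vehicle 12 and floxed vehicle 3, and markers of squamous epithelium in knockout progesterone 8 and knockout vehicle 9. Results that lost their call without these 5 libraries are named below. The labels do not say that the libraries of a group came from separate animals, so p-values measure the spread between these libraries. Floxed vehicle 1a and 1b share a number across the batches, as do knockout vehicle 11a and 11b. Whether these are the same animals is not said in the labels. In whole tissue, more cells of a type and more RNA per cell cannot be told apart.

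Levels spanned a wide range, and most of the abundant members were ligands of the homeostatic kind. Over all 24 libraries Ccl21a, the lymphatic ligand that guides dendritic cells and T cells, had a median of 35.5 RPKM. Cxcl12, the stromal ligand of Cxcr4, had a median of 35.3 RPKM, and Cxcl14, made by stroma and epithelia, had 29.0 RPKM. Ccl11, the eosinophil attractant eotaxin, followed with 10.9 RPKM, and Cxcl16, a membrane-bound ligand of Cxcr6, with 10.8 RPKM. These 5 were the members with a median of at least 10 RPKM. Ranges of neighbours in this order overlapped, so Ccl21a (20.5 to 56.0 RPKM) and Cxcl12 (27.0 to 53.2 RPKM) cannot be ranked by level. Among receptors Cxcr4 led with a median of 8.32 RPKM, then the scavenger Ackr3 with 6.94 RPKM and Cx3cr1 with 4.86 RPKM. At the other end, 15 members had a median below 0.1 RPKM.

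**Figure D1:**
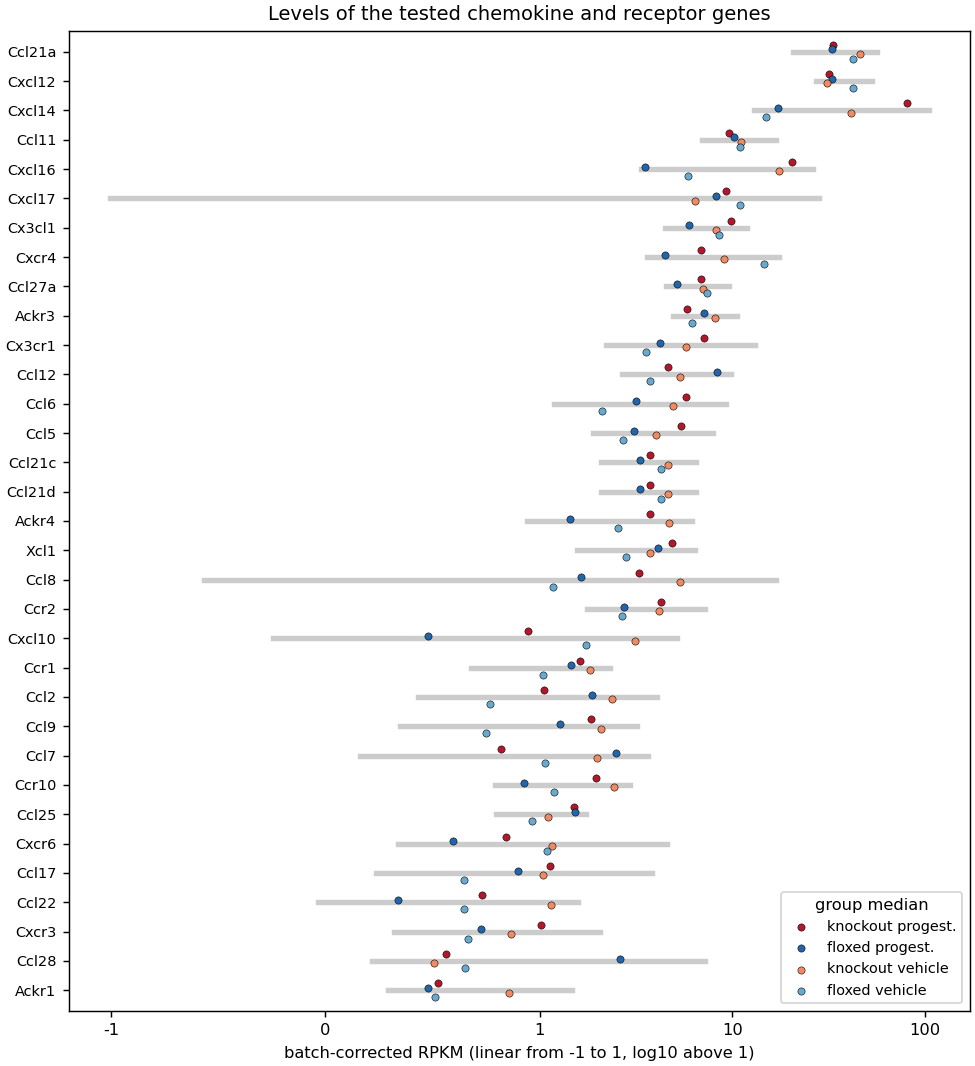
Levels of 33 tested members in RPKM (linear between -1 and 1, log10 scale above), as a grey bar from the lowest to the highest of 24 libraries and 4 dots for the group medians. Ccl21a and Cxcl12 are at the top, and the dots of Cxcl16 and Cxcl14 lie farther apart by genotype than those of most members.

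The ligands and receptors of the neutrophil axis were below 1 RPKM in every library. None of the 4 CXC ligands of neutrophil receptors passed the filter, with medians of 0.288 RPKM for Cxcl1, 0.0289 RPKM for Cxcl2, 0.00816 RPKM for Cxcl3 and 0.0556 RPKM for Cxcl5. Their receptors Cxcr1 and Cxcr2 had medians of 0.00273 and 0.025 RPKM, and Cxcr2 reached 0.462 RPKM in knockout progesterone 6. For Cxcl3 and Cxcr1 the median is a value that recurs, with either sign, in most libraries. It reflects the constant added by the batch correction and is not a measured level. None of the 7 neutrophil markers passed the filter either. In a fit without the filter, Cxcl1 was called higher in the knockout after vehicle (limma, log2 difference 0.30 ± 0.08, adjusted p = 0.00793). In all, 28 members were not tested: 24 had no library at 1 RPKM and 4 had 1 to 3, and the highest value among them was 1.96 RPKM for Ccl1, a ligand of Ccr8. The lymphocyte receptors Ccr4, Ccr6, Ccr7, Ccr8, Ccr9 and Cxcr5 were all in this group, and so were the B cell ligand Cxcl13 and the interferon-induced ligands Cxcl9 and Cxcl11. The tested members nearest the filter were Ccl28 and Ackr1, each at 1 RPKM or more in 5 libraries, and Ccl1, with 2 such libraries, and Cxcl13, with 3, were left out. Ccl21c and Ccl21d carry identical rows, so the 34 tested members are 33 distinct ones. Ccl21a, Ccl21b, Ccl21c and Ccl21d, and Ccl27a and Ccl27b, are near-identical copies whose reads the counting may have split, and their levels are uncertain.

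After vehicle, 15 of the 34 tested members differed between knockout and floxed uteri, 12 higher and 3 lower in the knockout (limma, Benjamini-Hochberg adjusted p below 0.05 over all 14284 genes tested). Over all tested genes 13.1% were called higher and 11.5% lower in this comparison. The median difference of the tested members was 0.42 on the log2(RPKM + 0.5) scale, against -0.01 over all genes, and 27 of 34 members were positive, against 48.3% of all genes. After progesterone 9 members differed, 8 higher and 1 lower, where 12.3% of all genes were called higher and 7.06% lower. The median was then 0.39 for the members and 0.03 for all genes. The 2 genotype comparisons share no library. By class, after vehicle, the calls took in 4 of 4 tested CXC ligands outside the neutrophil and interferon classes, 2 higher and 2 lower. They also took in 4 of 8 inflammatory CC ligands, all higher. The homing and epithelial CC ligands gave 0 of 8, with none at an unadjusted p below 0.05. The calls held unevenly across batches, and with the vehicle-only batch taken alone 4 members passed. All 15 kept their sign in both batches. They were called on these same libraries pooled, so the shared sign is not a separate test.

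**Figure D2:**
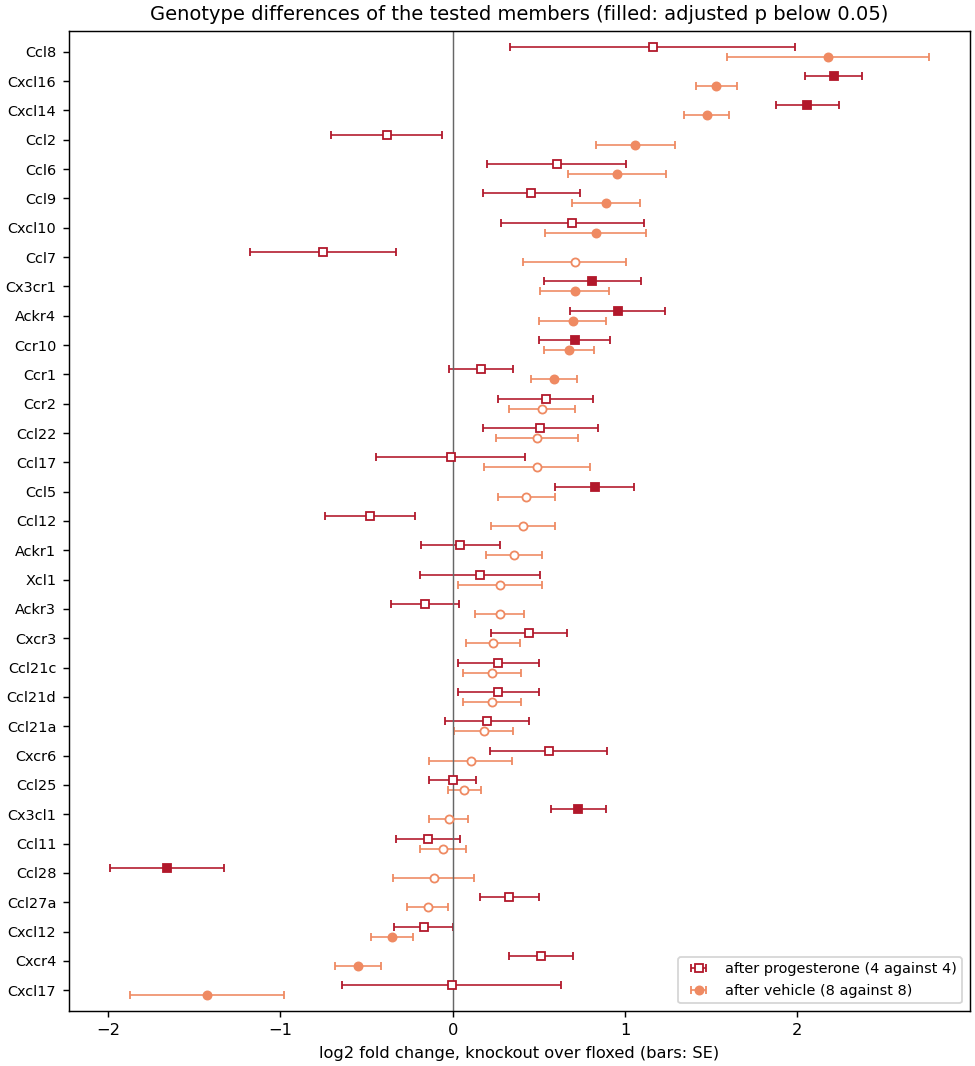
Difference between knockout and floxed uteri for 33 tested members, in log2(RPKM + 0.5) with its standard error, after progesterone (squares, 4 against 4) and after vehicle (circles, 8 against 8), filled where the adjusted p was below 0.05. Cxcl16 and Cxcl14 lie farthest to the right under both treatments among members with small errors, at 2.21 and 2.06 after progesterone and 1.53 and 1.47 after vehicle.

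Cxcl16 was the member with the smallest adjusted p in both genotype comparisons. It encodes a chemokine anchored in the membrane of macrophages, dendritic cells and epithelial cells, and Adam10 can shed it as a soluble ligand for Cxcr6. Its gene lies at chr11:70453983-70459984 on the minus strand (GRCm38, GENCODE M21). Cxcl16 stood at 13.9, 20.2, 21.9 and 20.4 RPKM in knockout progesterone uteri, against 3.58, 3.35, 4.44 and 3.43 RPKM in floxed progesterone uteri. After vehicle its lowest, median and highest values were 14.4, 17.5 and 26.1 RPKM in 8 knockout libraries, against 4.44, 5.92 and 7.67 RPKM in 8 floxed libraries. Every knockout library was above every floxed library under both treatments. The log2 difference was 2.21 ± 0.17 (SE) after progesterone, 4.62-fold, with an adjusted p of 2.97e-09, and 1.53 ± 0.12 after vehicle, 2.89-fold, with an adjusted p of 1.71e-09. Within batches the vehicle means were 18.5 ± 5.20 RPKM in the knockout and 5.50 ± 0.598 RPKM in the floxed libraries of the mixed batch (SD, n = 4 each). In the vehicle-only batch they were 17.7 ± 0.517 RPKM in the knockout and 6.36 ± 1.39 RPKM in the floxed libraries (SD, n = 4 each).

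The exons of Cxcl16 share 552 of 3021 bases, 18.3%, with Zmynd15 on the opposite strand, with the strand setting of the counting not given in the sources used here. Zmynd15 had 1.51 ± 0.228 RPKM in knockout progesterone uteri against 0.666 ± 0.158 RPKM in floxed progesterone uteri (SD, n = 4 each). After vehicle it had 1.91 ± 0.284 RPKM in knockout and 0.883 ± 0.166 RPKM in floxed uteri (SD, n = 8 each). It thus moved with Cxcl16, at a far lower level, and its part in the result was not tested. Cxcr6, the receptor, was called in no comparison. It had 0.340, 0.881, 4.58 and 0.802 RPKM in knockout progesterone uteri, against 0.520, 0.339, 1.13 and 0.674 RPKM in floxed progesterone uteri, with 1 knockout library far above the rest (log2 difference 0.56, adjusted p = 0.275). After vehicle the log2 difference was 0.10 ± 0.24 (adjusted p = 0.811).

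Cxcl14 is a homeostatic chemokine of epithelia and fibroblasts whose receptor is not settled. Its gene lies at chr13:56288643-56296551 on the minus strand. Cxcl14 reached 104, 89.3, 56.4 and 71.8 RPKM in knockout progesterone uteri, against 15.6, 15.7, 25.5 and 18.6 RPKM in floxed progesterone uteri. After vehicle the lowest, median and highest values were 32.5, 41.3 and 56.4 RPKM in knockout uteri and 13, 14.9 and 17.8 RPKM in floxed uteri. The genotypes did not overlap under either treatment. The log2 difference was 2.06 ± 0.18 after progesterone, 4.16-fold (adjusted p = 3.51e-08), and 1.47 ± 0.13 after vehicle, 2.78-fold (adjusted p = 1.25e-08). Taken alone, each batch called the vehicle difference, at 1.37 (mixed) and 1.57 (vehicle-only). Cxcl14 was also the 1 member that progesterone raised in the knockout, by 0.84 ± 0.17 on the log2 scale (adjusted p = 0.00294), while the floxed response was 0.26 (adjusted p = 0.296). The test of the difference between the responses missed the threshold (0.58, adjusted p = 0.204). Its promoter is shown because it is the one called member whose window held letters of a steroid receptor hexamer, TGTTCT, together with an interferon-type element. In the RefSeq sequence of chr13:56296502-56296801 (GRCm38.p6, minus strand, 250 bases before to 50 after the start) the capitals mark 2 stretches. The first is TGTTCT at -193 overlapping a gamma-activated site, TTCNNNGAA, at -191, and the other an interferon-stimulated response element, GAAANNGAA, at -172.
Cxcl14: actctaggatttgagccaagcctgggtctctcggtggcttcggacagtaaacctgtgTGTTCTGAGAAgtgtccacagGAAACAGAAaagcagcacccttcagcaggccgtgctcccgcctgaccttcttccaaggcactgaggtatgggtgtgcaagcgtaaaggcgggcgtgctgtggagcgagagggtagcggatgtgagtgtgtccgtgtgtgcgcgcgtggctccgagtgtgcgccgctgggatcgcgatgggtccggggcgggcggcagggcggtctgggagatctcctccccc
TGTTCT or its complement stands in 18.974% of the 32851 promoter windows in the table, GAAANNGAA in 8.56% and TTCNNNGAA in 8.298%, on either strand, so such matches are common. The longer CTCF consensus and the full steroid response element were in 0.457% and 0.222% of all windows and in none of the 45 members' windows. A match of letters is a description, not a binding site.

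**Figure D3:**
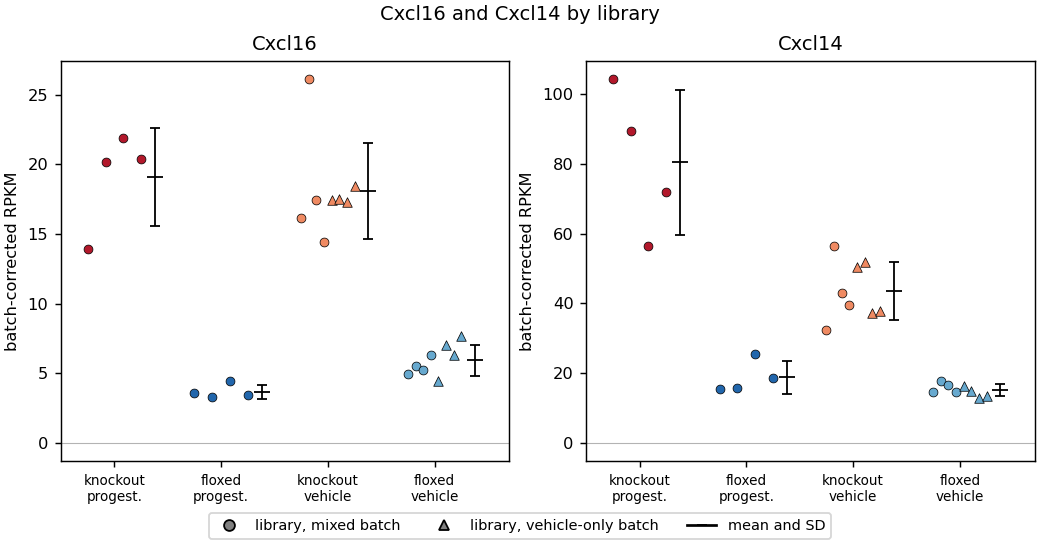
Cxcl16 and Cxcl14 in RPKM in each library, by group, with the mean and SD; circles are libraries of the mixed batch and triangles those of the vehicle-only batch. Every knockout library lies above every floxed library of the same treatment, and for Cxcl14 the knockout progesterone libraries (56.4 to 104 RPKM) include the highest values.

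Markers of leukocytes moved with genotype. The summed level of 6 leukocyte genes was 37.3, 60.4, 108 and 74.7 RPKM in knockout progesterone uteri, against 34.3, 30.2, 50.9 and 40.7 RPKM in floxed progesterone uteri. After vehicle it ran from 54.1 to 77.4 RPKM in knockout uteri and from 30.2 to 48.0 RPKM in floxed uteri. All 6 genes were called higher in the knockout in both comparisons. Knockout progesterone 4, the library with the lowest leukocyte sum of its group, had 13.9 RPKM of Cxcl16 and 104 RPKM of Cxcl14. The first was the lowest value among the knockout libraries and above all floxed libraries, and the second the highest of all libraries. These values come from that library alone. The part of leukocytes in the differences of the members was not tested.

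Cxcl12 and its receptors were tested as a second homeostatic axis. Cxcl12 holds stem cells and leukocytes in stroma through Cxcr4, and Ackr3 removes it. After vehicle Cxcl12 had a lowest, median and highest value of 27.0, 30.9 and 47.8 RPKM in knockout uteri, against 35.7, 42.2 and 51.1 RPKM in floxed uteri. The groups overlapped, and the log2 difference of -0.35 ± 0.12 (adjusted p = 0.0385) was small. Taken alone, the mixed batch gave -0.52 and the vehicle-only batch -0.19 (adjusted p = 0.656). The call held in 15 of 24 fits that each left out 1 library. Each of these fits that lost the call left out a vehicle library, and leaving out a progesterone library does not change this difference. Without the 5 libraries with oviduct or squamous markers the adjusted p was 0.189. After progesterone Cxcl12 was 30.2, 33.5, 39.8 and 28.1 RPKM in knockout uteri, against 53.2, 32.1, 32.7 and 32.7 RPKM in floxed uteri, and was not called (log2 difference -0.17, adjusted p = 0.54). Ackr3 had a log2 difference of -0.16 after progesterone (adjusted p = 0.613) and of 0.27 after vehicle (adjusted p = 0.171).

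Cxcr4 was the member with the smallest adjusted p in the test of whether the progesterone response differed between genotypes. It stood at 6.76, 7.06, 7.40 and 6.04 RPKM in knockout progesterone uteri, against 4.41, 3.62, 6.27 and 4.51 RPKM in floxed progesterone uteri. After vehicle the lowest, median and highest values were 7.39, 9.07 and 10.8 RPKM in knockout uteri and 7.5, 14.5 and 17.4 RPKM in floxed uteri. All 4 floxed progesterone libraries were below all 8 floxed vehicle libraries. In floxed uteri progesterone lowered Cxcr4 by a log2 change of -1.45 ± 0.18 (adjusted p = 3.32e-06), and in knockout uteri the change was -0.38 (adjusted p = 0.192). The difference between these responses was 1.06 ± 0.23 (adjusted p = 0.0112), and it stayed called with each of the 24 libraries left out in turn. Knockout uteri had less Cxcr4 than floxed uteri after vehicle (log2 difference -0.55 ± 0.13, adjusted p = 0.00343). After progesterone the sign was the other way, 0.51 ± 0.19, and missed the threshold (adjusted p = 0.0586), though it passed in the mixed batch alone (adjusted p = 0.0186) and without the 5 libraries with oviduct or squamous markers (adjusted p = 0.0331). For the vehicle difference the mixed batch alone gave -0.64 and the vehicle-only batch alone -0.46, the second not called (adjusted p = 0.308). The Cxcr4 promoter is shown because this member had the smallest adjusted p of the members in the floxed response. In chr1:128592250-128592549 (RefSeq, GRCm38.p6, minus strand) the capitals mark the complement of TGTTCT at -185, the 1 match among the motifs searched.
Cxcr4: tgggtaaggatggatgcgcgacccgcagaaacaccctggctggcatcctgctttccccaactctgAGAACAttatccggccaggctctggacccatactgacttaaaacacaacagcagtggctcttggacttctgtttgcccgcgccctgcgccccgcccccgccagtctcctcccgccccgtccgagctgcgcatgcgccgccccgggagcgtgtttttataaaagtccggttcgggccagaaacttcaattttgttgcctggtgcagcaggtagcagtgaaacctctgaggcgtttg

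Cxcl17 is a mucosal chemokine of epithelial cells, and its difference lay in 1 batch. In the vehicle-only batch it was 2.83, 6.34, -1.01 and 2.62 RPKM in knockout uteri, against 28, 16.1, 10.9 and 10.8 RPKM in floxed uteri. In the mixed batch after vehicle it was 11, 12.1, 6.38 and 7.09 RPKM in knockout uteri, against 9.37, 11.7, 9.10 and 9.85 RPKM in floxed uteri, and the groups overlapped. The pooled log2 difference was -1.43 ± 0.45 (adjusted p = 0.0229), with -0.16 from the mixed batch and -2.69 from the vehicle-only batch when each was taken alone, neither of them called. Without floxed vehicle 1a, the library at 28 RPKM, the pooled value was -1.20 (adjusted p = 0.0531). Epithelial markers moved in the same batch: their sum over 6 genes ran from 212 to 246 RPKM in knockout uteri and from 326 to 422 RPKM in floxed uteri of the vehicle-only batch. Among mixed vehicle libraries it ran from 245 to 327 RPKM in knockout uteri and from 295 to 339 RPKM in floxed uteri. Their part in the result was not tested.

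Some of the inflammatory CC ligands and of the receptors of monocytes and macrophages rose in knockout uteri after vehicle. Of 8 tested inflammatory CC ligands 4 were called higher (Ccl2, Ccl6, Ccl8 and Ccl9), and so were the receptors Ccr1 and Cx3cr1.

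Cx3cr1, the fractalkine receptor of monocytes and tissue macrophages, had 3.58, 7.69, 13.1 and 6.50 RPKM in knockout progesterone uteri, against 2.99, 2.21, 5.39 and 5.51 RPKM in floxed progesterone uteri. The groups overlapped, and the log2 difference of 0.81 ± 0.28 (adjusted p = 0.0468) kept its call in 8 of 24 fits that each left out 1 library and lost it without the 5 libraries with oviduct or squamous markers (adjusted p = 0.0689). After vehicle it had 4.44, 5.75 and 7.90 RPKM in knockout uteri (lowest, median, highest) and 2.44, 3.56 and 4.85 RPKM in floxed uteri (log2 difference 0.71 ± 0.20, adjusted p = 0.0114). That call was lost without the 5 libraries with oviduct or squamous markers (adjusted p = 0.0586), and the value was 1.07 from mixed libraries alone and 0.35 from vehicle-only libraries alone. Ccr1, which binds Ccl3, Ccl5, Ccl6 and Ccl9 in mice, was higher in the knockout after vehicle, at 1.42, 1.83 and 2.26 RPKM against 0.680, 1.04 and 1.33 RPKM in floxed uteri (0.59 ± 0.13, adjusted p = 0.002). From vehicle-only libraries alone the vehicle difference of Ccr1 was 0.43 and not called (adjusted p = 0.12). After progesterone its log2 difference was 0.16 (adjusted p = 0.591). Ccr2, the receptor that calls monocytes from blood, was 0.54 (adjusted p = 0.181) after progesterone and 0.52 (adjusted p = 0.0551) after vehicle.

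Ccl2, the main ligand of Ccr2, had 1.49, 2.36 and 4.05 RPKM in knockout vehicle uteri (lowest, median, highest), against 0.491, 0.767 and 1.34 RPKM in floxed vehicle uteri. No library of one genotype lay in the range of the other, and the log2 difference was 1.06 ± 0.23 (adjusted p = 0.00126), with 1.36 from mixed libraries alone and 0.76 from vehicle-only libraries alone (adjusted p = 0.179). After progesterone Ccl2 was 0.434, 0.948, 1.15 and 2.21 RPKM in knockout uteri, against 0.546, 1.70, 2.02 and 2.52 RPKM in floxed uteri, a log2 difference of -0.38 that was not called (adjusted p = 0.451). The difference between the genotypes' hormone responses was -1.44 ± 0.39 and just missed the threshold (adjusted p = 0.0519). It passed in the mixed batch alone (-1.74, adjusted p = 0.0409) and without floxed progesterone 1 (-1.77, adjusted p = 0.00885). Ccl7, a neighbouring gene with the same receptor, had a difference in response of -1.46 (adjusted p = 0.157), and Ccl12, another Ccr2 ligand of mice, of -0.89 (adjusted p = 0.167).

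Ccl8, a monocyte chemoattractant, varied widely between libraries. In the mixed batch after vehicle it was 10.2, 16.9, 5.19 and 1.75 RPKM in knockout uteri, against -0.504, -0.565, 0.263 and -0.558 RPKM in floxed uteri. In the vehicle-only batch it was 7.06, 4.5, 5.46 and 3.66 RPKM in knockout uteri, against 3.37, 4.21, 2.34 and 2.08 RPKM in floxed uteri. After correction the floxed vehicle libraries of the mixed batch were below 0, apart from floxed vehicle 3 at 0.263 RPKM. The size of the change is therefore not set by these values. The pooled log2 difference was 2.18 ± 0.58 (adjusted p = 0.00817), with 3.65 from mixed libraries alone and 0.70 from vehicle-only libraries alone (adjusted p = 0.12). After progesterone the values were 1.56, 4.97, 1.22 and 11 RPKM in knockout uteri, against 0.247, -0.149, 6.26 and 3.05 RPKM in floxed uteri, with overlap (log2 difference 1.16 ± 0.83, adjusted p = 0.363).

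Ccl6 and Ccl9, both Ccr1 ligands of mouse myeloid cells, were higher in knockout vehicle uteri. Ccl9 had a lowest, median and highest value of 0.954, 2.07 and 3.18 RPKM in knockout uteri, against 0.349, 0.752 and 1.73 RPKM in floxed uteri (log2 difference 0.89 ± 0.20, adjusted p = 0.0018). Ccl6 had 2.64, 4.90 and 9.21 RPKM in knockout uteri, against 1.18, 2.12 and 4.96 RPKM in floxed uteri (0.95 ± 0.29, adjusted p = 0.0171). Both overlapped between genotypes, and after progesterone their log2 differences were 0.46 (adjusted p = 0.279) and 0.60 (adjusted p = 0.328). From vehicle-only libraries alone, Ccl9 had 1.02 (adjusted p = 0.0849) and Ccl6 1.01 (adjusted p = 0.08), neither called. Ccl6 was not called from mixed libraries alone either (0.90, adjusted p = 0.169). Ccl5, which draws T cells and macrophages, was called after progesterone: it had 4.02, 4.90, 5.88 and 7.94 RPKM in knockout uteri, against 3.58, 1.89, 3.97 and 2.57 RPKM in floxed uteri. Every knockout library was above every floxed library, by a narrow margin at the edge (0.82 ± 0.23, adjusted p = 0.0143). Its vehicle difference was 0.43 (adjusted p = 0.0605). Without knockout progesterone 8 or without floxed progesterone 2 the progesterone call was lost (adjusted p = 0.0588 and 0.0664). Ccl11, the member of the class with the highest level, was called in no comparison. It had 9.78 ± 2.76 RPKM in knockout and 10.6 ± 1.40 RPKM in floxed uteri after progesterone (SD, n = 4 each), and 11.3 ± 1.93 RPKM in knockout and 11.8 ± 2.55 RPKM in floxed uteri after vehicle (SD, n = 8 each).

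Macrophage markers rose with these members. Their sum over 10 genes was 170, 284, 379 and 396 RPKM in knockout progesterone uteri, against 153, 109, 185 and 164 RPKM in floxed progesterone uteri, and ran from 216 to 412 RPKM in knockout vehicle uteri and from 102 to 168 RPKM in floxed vehicle uteri. After progesterone 8 and after vehicle 9 of the 10 markers were called higher in the knockout, with median log2 differences of 0.86 and 1.01. The part of macrophage number in the values of Ccr1, Cx3cr1 and the CC ligands was not tested. Progesterone called none of the 10 macrophage markers in either genotype (limma), with 1 of 10 at an unadjusted p below 0.05 in floxed and 0 of 10 in knockout uteri.

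**Figure D4:**
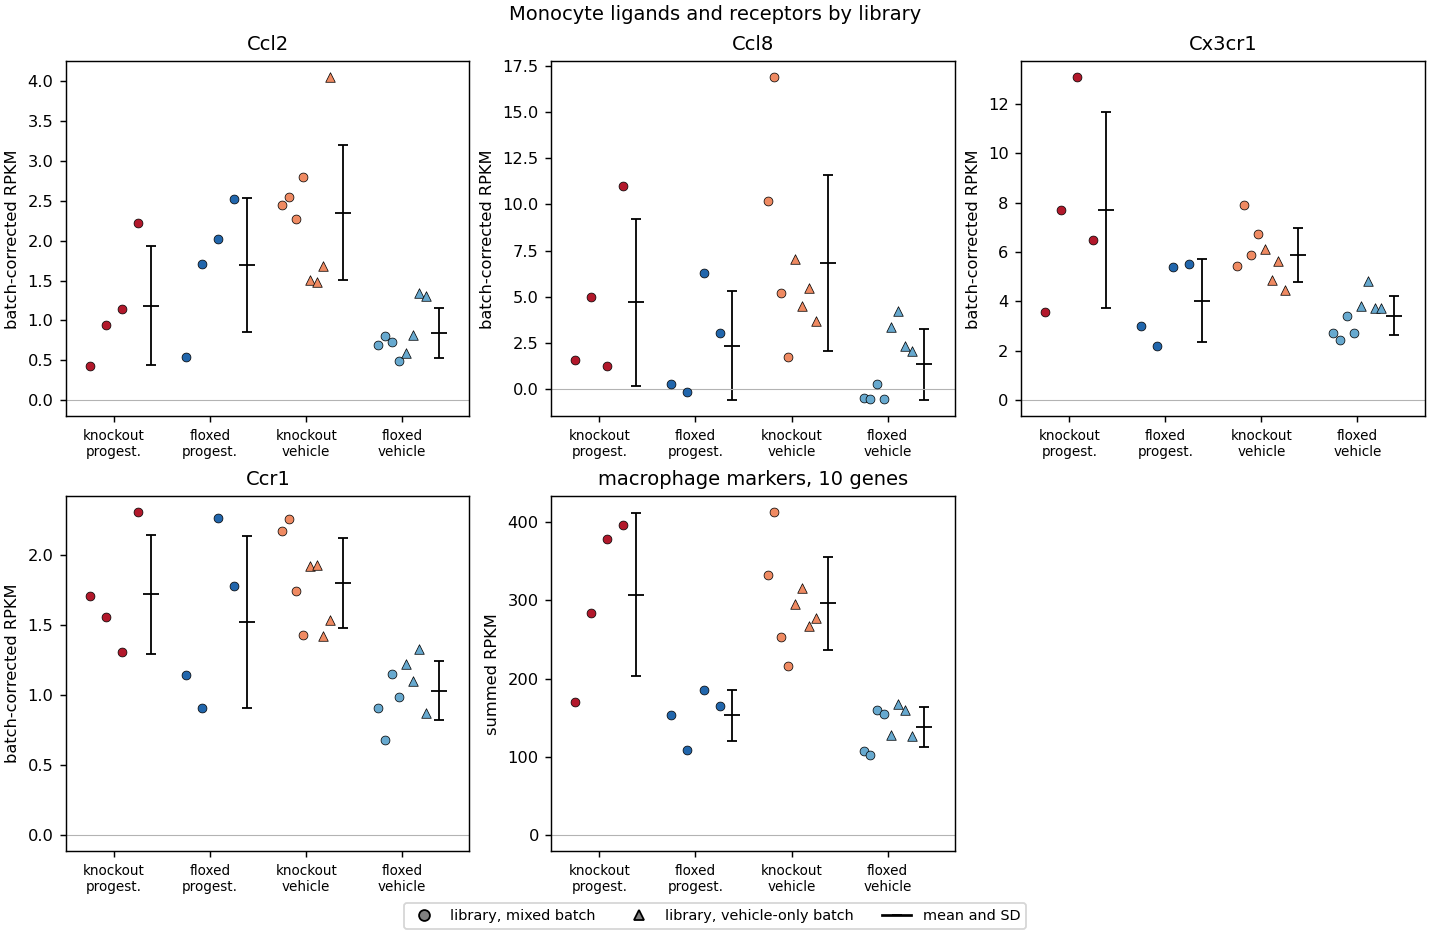
Ccl2, Ccl8, Cx3cr1 and Ccr1 in RPKM, and the summed level of 10 macrophage markers in RPKM, in each library by group with the mean and SD; circles are the mixed batch and triangles the vehicle-only batch. After vehicle the knockout libraries of Ccl2, Ccr1 and the marker sum lie above all floxed libraries, and after progesterone Ccl2 overlaps between genotypes.

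Cxcl10, the one interferon-induced CXC ligand above the filter, draws T cells and natural killer cells through Cxcr3. It stood at 0.247, 0.594, 3.49 and 1.30 RPKM in knockout progesterone uteri, against -0.245, 1.5, 0.158 and 0.803 RPKM in floxed progesterone uteri. After vehicle it had 1.99, 3.12 and 5.18 RPKM in knockout uteri (lowest, median, highest), against 1.08, 1.73 and 2.26 RPKM in floxed uteri. Progesterone lowered it by a log2 change of -1.24 ± 0.39 in the knockout (adjusted p = 0.0485) and of -1.11 ± 0.39 in the floxed uterus (adjusted p = 0.0428), and after vehicle the knockout was higher by 0.83 ± 0.29 (adjusted p = 0.0426). All 3 calls lay near the threshold. They held in 5, 12 and 14 of 24 fits that each left out 1 library (knockout response, floxed response, vehicle genotypes). For the vehicle genotypes, each of these fits that lost the call left out a vehicle library. All 3 calls were lost without the 5 libraries with oviduct or squamous markers (adjusted p = 0.181, 0.209 and 0.1). Cxcr3 was called in no comparison, and 5.91% of the exon bases of Cxcl10 overlap Art3 on the other strand. The Cxcl10 promoter is shown as the textbook arrangement of an interferon and NF-kappaB target. In chr5:92348840-92349139 (RefSeq, GRCm38.p6, minus strand) the capitals mark GAAANNGAA at -213 and the complement of the kappaB motif GGANTTTCC at -158.
Cxcl10: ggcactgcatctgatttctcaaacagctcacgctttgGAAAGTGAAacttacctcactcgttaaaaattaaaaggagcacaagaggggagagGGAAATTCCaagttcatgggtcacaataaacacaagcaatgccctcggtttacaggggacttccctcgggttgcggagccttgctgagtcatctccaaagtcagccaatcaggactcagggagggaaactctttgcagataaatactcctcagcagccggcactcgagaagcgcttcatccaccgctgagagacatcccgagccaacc
GGANTTTCC stood in 1.254% of all promoter windows, on either strand, and in 5 of the 45 members' windows: Cxcl1, Cxcl2 and Cxcl3, which were near 0 here, Ccr3 and Cxcl10. Cxcl10 was the 1 of these 5 above the filter.

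In floxed uteri progesterone changed 7 of the 34 tested members within 6 h, 3 higher and 4 lower, where 7.84% of all genes were called higher and 15.1% lower. In knockout uteri it changed 2, Cxcl14 higher and Cxcl10 lower, where 4% of all genes were called higher and 4.66% lower. The test of the difference between the responses called 3 members, Cxcr4, Cx3cl1 and Ccl28, where 2.49% of all genes were called. The floxed response and the genotype comparison after progesterone share the 4 floxed progesterone libraries, so a value of these libraries enters both.

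Ccl28, a mucosal ligand that brings Ccr10-bearing cells to glandular epithelia, was the member progesterone raised most in floxed uteri. It stood at 1.5, 2.42, 7.25 and 2.78 RPKM in floxed progesterone uteri, against 0.270, 0.650 and 0.926 RPKM in floxed vehicle uteri (lowest, median, highest). All 4 were above all 8, and the log2 change was 1.71 ± 0.31 (adjusted p = 0.000348). In knockout progesterone uteri it was 0.219, 0.308, 0.821 and 1.45 RPKM, against 0.236, 0.506 and 0.790 RPKM in knockout vehicle uteri, a log2 change of 0.17 (adjusted p = 0.806). After progesterone the knockout was thus lower than the floxed uterus, with no overlap (-1.66 ± 0.33, adjusted p = 0.000979), and after vehicle the difference was -0.11 (adjusted p = 0.788). The difference between the responses was -1.55 ± 0.41 (adjusted p = 0.0411) and kept its call in 8 of 24 fits that each left out 1 library. Ccl28 entered the tests through 5 libraries at 1 RPKM or more, and 4 of these were the floxed progesterone libraries, the group where it is high, so its calls describe a member that the filter kept because of that group. Without the filter the difference between the responses missed the threshold (adjusted p = 0.0542). The floxed response stayed called in all 34 alternatives, but these draw on the same floxed progesterone libraries and nearly all keep the filter. They are therefore not separate support, and the filter of 5 RPKM left Ccl28 out. The highest library, floxed progesterone 7, was also the one with the most oviduct marker RNA. Without it the floxed response was 1.33, still called, and the difference in response was -1.16 (adjusted p = 0.0895). Ccr10, the receptor, was higher in the knockout under both treatments. It was 1.74, 2.64, 2.18 and 1.13 RPKM in knockout progesterone uteri, against 1.15, 0.867, 0.986 and 0.792 RPKM in floxed progesterone uteri (0.71 ± 0.21, adjusted p = 0.0176). After vehicle it had 1.04, 2.42 and 2.93 RPKM in knockout uteri and 0.864, 1.18 and 1.54 RPKM in floxed uteri (0.68 ± 0.15, adjusted p = 0.00123). From vehicle-only libraries alone this difference was 0.69 and not called (adjusted p = 0.168). The progesterone call was lost without knockout progesterone 5 (adjusted p = 0.0765), knockout progesterone 6 (0.0506) or floxed progesterone 9 (0.0529). Ccl27a, the other ligand of Ccr10, had log2 differences of 0.33 after progesterone (adjusted p = 0.192) and -0.15 after vehicle (adjusted p = 0.424).

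Cx3cl1, fractalkine, is a membrane-anchored chemokine of endothelium and epithelium that Adam10 and Adam17 can release, and it is the ligand of Cx3cr1. It stood at 9.64, 11, 9.21 and 10.1 RPKM in knockout progesterone uteri, against 5.90, 4.49, 7.18 and 5.97 RPKM in floxed progesterone uteri, with no overlap (0.73 ± 0.16, adjusted p = 0.00226). After vehicle the genotypes had the ranges 5.94 to 12 RPKM in the knockout and 6.87 to 10.7 RPKM in the floxed uterus, and the log2 difference was -0.02 (adjusted p = 0.907). Progesterone lowered Cx3cl1 in floxed uteri, with a log2 change of -0.52 ± 0.15 (adjusted p = 0.0143, and 0.0688 without floxed progesterone 2), while the knockout change was 0.23 (adjusted p = 0.39). The difference between the responses was 0.75 ± 0.20 (adjusted p = 0.0387) and kept its call in 9 of 24 fits that each left out 1 library. Without the 5 libraries with oviduct or squamous markers its adjusted p was 0.133.

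The remaining floxed responses were smaller. Cxcl16 fell after progesterone, with a log2 change of -0.57 ± 0.15 (adjusted p = 0.0102, with 0.0518 after quantile normalization and 0.368 on untransformed RPKM), where the knockout change was 0.11 (adjusted p = 0.73) and the difference between responses 0.68 (adjusted p = 0.0788). Ccl12 stood at 5.23, 7.83, 9.34 and 8.89 RPKM in floxed progesterone uteri, against 2.68, 3.73 and 6.60 RPKM in floxed vehicle uteri (lowest, median, highest), with some overlap (0.86 ± 0.24, adjusted p = 0.014, and 0.051 without floxed progesterone 7). In knockout progesterone uteri Ccl12 was 3.83, 5.29, 3.95 and 9.85 RPKM, against 3.99, 5.36 and 7.17 RPKM in knockout vehicle uteri (-0.03, adjusted p = 0.961). Ccl25, the ligand of Ccr9 that draws lymphocytes to the gut and thymus, stood at 1.03, 1.41, 1.73 and 1.64 RPKM in floxed progesterone uteri, against 0.864, 0.966 and 1.29 RPKM in floxed vehicle uteri (0.38 ± 0.13, adjusted p = 0.0347). The call was kept in 18 of 24 fits that each left out 1 library, and each fit that lost it left out a floxed library. Without the 5 libraries with oviduct or squamous markers the adjusted p was 0.151. Its receptor Ccr9 had a median of 0.0366 RPKM.

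**Figure D5:**
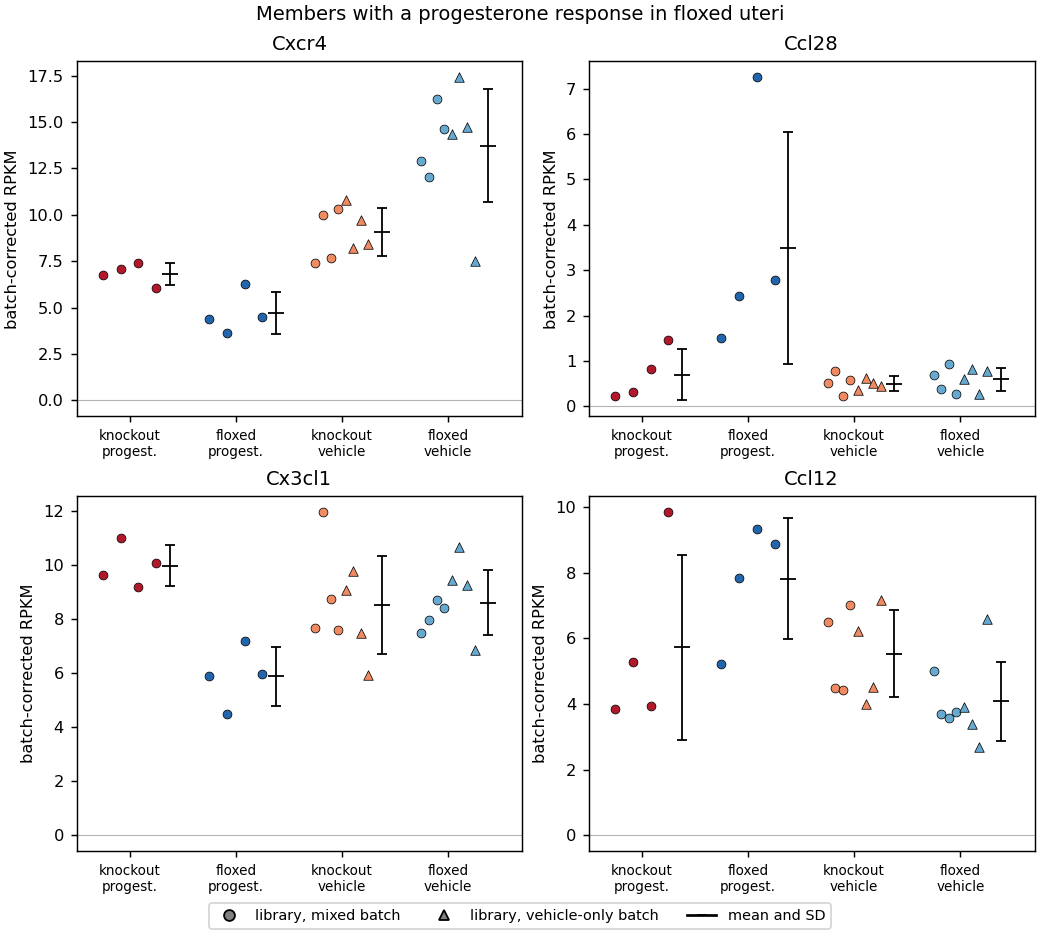
Cxcr4, Ccl28, Cx3cl1 and Ccl12 in RPKM in each library by group, with the mean and SD; circles are the mixed batch and triangles the vehicle-only batch. For Cxcr4 the floxed progesterone libraries (3.62 to 6.27 RPKM) lie below all vehicle libraries, with 1 knockout progesterone library (6.04 RPKM) inside their range, and for Ccl28 they are the highest (1.5 to 7.25 RPKM), with 1 knockout progesterone library at 1.45 RPKM just below.

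Among the homing ligands, Ccl21a stood at 29.2, 31.2, 35.5 and 53.5 RPKM in knockout progesterone uteri, against 35.3, 25.9, 33.2 and 32.6 RPKM in floxed progesterone uteri. It had 32.9, 45.8 and 56.0 RPKM in knockout vehicle uteri (lowest, median, highest), against 20.5, 42.3 and 50.7 RPKM in floxed vehicle uteri, and was called in no comparison. Its receptor Ccr7 had a median of 0.236 RPKM. Ackr4, the scavenger that removes Ccl19, Ccl21 and Ccl25, was higher in the knockout under both treatments. It was 3.92, 3.57, 1.84 and 4.65 RPKM in knockout progesterone uteri, against 0.942, 1.13, 2.38 and 1.76 RPKM in floxed progesterone uteri, with 1 library of each genotype crossing (0.96 ± 0.28, adjusted p = 0.0173). After vehicle it was 3.15, 4.71 and 6.15 RPKM in knockout uteri and 1.35, 2.55 and 4.10 RPKM in floxed uteri (0.70 ± 0.20, adjusted p = 0.0109), with 0.97 from mixed libraries alone and 0.42 from vehicle-only libraries alone (adjusted p = 0.513). The progesterone call was lost without the 5 libraries with oviduct or squamous markers (adjusted p = 0.0512). It was also lost without knockout progesterone 8 (0.0601), floxed progesterone 1 (0.0609) or floxed progesterone 2 (0.0568). Of its 5380 exon bases 479 overlap Acad11 on the other strand. Ackr1, the venular and red cell scavenger, and Ackr3 were called in no comparison.

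Neighbouring members were not always called together. The chromosome 11 genes Ccl2, Ccl7, Ccl11, Ccl12 and Ccl8 lie in this order between 82035571 and 82116799, and not all of them were called: after vehicle Ccl2 and Ccl8 were called higher in the knockout, Ccl7 (0.71, adjusted p = 0.0895) and Ccl12 (0.41, adjusted p = 0.116) were not called, and Ccl11 was at -0.06 (adjusted p = 0.812). On chromosome 8 the ligand genes Ccl22, Cx3cl1 and Ccl17 start at 94745590, 94772009 and 94810453. None of them was called between genotypes after vehicle, and after progesterone Cx3cl1 alone was called. The differences of neighbours were not tested against each other.

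Genes that act below chemokine receptors, 28 tested of 34 listed, had 12 called higher and 4 lower in the knockout after progesterone, where 12.3% of all genes were called higher and 7.06% lower. After vehicle 11 were higher and 3 lower, where 13.1% of all genes were called higher and 11.5% lower. The smallest adjusted p after progesterone belonged to Rgs2, which ends G protein signals (-1.01 ± 0.14, adjusted p = 1.12e-05), Arrb2, an arrestin that takes receptors off the surface (0.56 ± 0.08, adjusted p = 3.54e-05), and Prex1, a Rac activator of leukocytes (0.81 ± 0.16, adjusted p = 0.000679). After vehicle they were the kinase Jak2 (-0.71 ± 0.10, adjusted p = 7.4e-06), Prex1 (0.74 ± 0.11, adjusted p = 2.3e-05) and Rgs2 (-0.57 ± 0.10, adjusted p = 0.000101). Rac2 and Vav1, genes of blood cells named here after their values were seen, were higher in the knockout by 0.91 ± 0.25 (adjusted p = 0.0109) and 0.87 ± 0.20 (adjusted p = 0.00331) after progesterone. Progesterone raised Rgs2 in both genotypes, by 0.51 ± 0.13 in the knockout (adjusted p = 0.0127) and 0.96 ± 0.13 in the floxed uterus (adjusted p = 9.84e-06).

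Genes that induce chemokines, 19 tested of 23 listed, had 1 called higher and 4 lower in the knockout after progesterone (12.3% and 7.06% of all genes). After vehicle 3 were higher and 2 lower, near the shares of all genes (13.1% and 11.5%). The ubiquitin ligase Traf6 was lower in the knockout under both treatments (-0.69 ± 0.11, adjusted p = 8.4e-05, and -0.59 ± 0.08, adjusted p = 4.55e-06, after progesterone and vehicle), and so was the Toll receptor adaptor Myd88 (-0.72 ± 0.19, adjusted p = 0.00823, and -0.45 ± 0.13, adjusted p = 0.0147). Progesterone raised Myd88 in both genotypes, by 1.32 ± 0.17 in the knockout (adjusted p = 6.02e-05) and 1.59 ± 0.17 in the floxed uterus (adjusted p = 7.23e-07). The NF-kappaB subunit Rel was lower in the knockout after progesterone (-0.83 ± 0.10, adjusted p = 3.14e-06). It rose in the floxed uterus by 0.98 ± 0.09 (adjusted p = 1.33e-07), and its response differed between genotypes by -0.72 ± 0.12 (adjusted p = 0.00147). Of 7 tested proteases that cut or shed chemokines, 2 were called higher and 0 lower in the knockout after progesterone, and 3 higher and 1 lower after vehicle. Mmp12, the macrophage elastase, was higher in the knockout by 2.93 ± 0.26 after progesterone (adjusted p = 3.05e-08) and 2.82 ± 0.18 after vehicle (adjusted p = 1.49e-10). Adam17 was higher by 0.44 ± 0.08 (adjusted p = 0.000275) after progesterone and was also called after vehicle, and Adam10, the sheddase of Cxcl16, was higher by 0.23 ± 0.05 after vehicle (adjusted p = 0.0009). Ctsd, the lysosomal protease cathepsin D, was lower after vehicle (-0.67 ± 0.14, adjusted p = 0.00104).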

How the data were processed

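Total RNA of uteri was sequenced as 24 Illumina Truseq libraries, per the labels' protocols. The authors deposited 1 gene-level table of batch-corrected RPKM, which is handled here as a score because the correction added a constant per gene and batch and left values below 0. In all 13688 genes looked at, the vehicle means of the 2 batches were equal within 0.0001. cutadapt 2.7, TopHat and Partek with build mm10 are listed in the submitters' processing notes, without roles. Counter, strand setting, annotation and correction tool: not given in the sources used here. Tests planned for plain RPKM were kept.

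Values below 0 were set to 0, log2(value + 0.5) was taken, and the 14284 genes that reached 1 RPKM in 4 or more libraries were fitted in limma 3.58.1 under R 4.3.3. The fit had the 4 groups and a batch term, eBayes with trend and robust settings (19 residual degrees of freedom, median prior 3.34), two-sided tests and Benjamini-Hochberg adjustment over all tested genes at 0.05. Fold changes on this scale understate the change of low genes. The code was tested on simulated data. Depth, 29900000 to 100600000 reads, was estimated per library from at least 66 genes of few reads, and counting error is therefore largest for members near 1 RPKM.

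Positions came from GENCODE M21 (59 of 62 members matched) and promoters from RefSeq GRCm38.p6 (45 members, 14 of the 20 called in at least 1 comparison). Motifs were searched on both strands. One member enters the fits and counts and is otherwise not reported here. The members and gene lists were chosen with earlier results of these data known. Libraries are given in full for called members, at most 12 per comparison by smallest adjusted p, and for the member of highest level in each class. From the signalling and induction lists at most 3 genes per comparison are named, with Rac2 and Vav1 named outside this limit. Alternatives covered the added constant, the filter, scaling, batch, weights, a replicate block and leaving out libraries. The main fit used no replicate block, since the labels do not say that equal numbers pair libraries. The 6 same-numbered pairs across treatments are too few to decide it.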

Additional observations from a re-analysis of the deposited data

Results flagged for a closer look

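In 4 of 76 groups looked at, 1 library lay far from the rest of its group by Dixon's criterion, which chance gives in about 1 of 20 groups. Cxcl12 in floxed progesterone 1 was 53.2 RPKM, while the other 3 libraries were between 32.1 and 32.7 RPKM. Cxcl16 in knockout vehicle 10 was 26.1 RPKM, with the others between 14.4 and 18.4 RPKM. Cxcl17 in floxed vehicle 1a was 28 RPKM, with the others between 9.10 and 16.1 RPKM. Ccl25 in floxed vehicle 12 was 1.29 RPKM, with the others between 0.864 and 1.04 RPKM.

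The progesterone response was called different between the genotypes, by limma's test of the difference itself, for 3 members on the log2 scale: Cxcr4 by 1.06, Cx3cl1 by 0.75 and Ccl28 by -1.55. Cxcr4 kept the call in all 24 fits that each left out 1 library, Cx3cl1 in 9 and Ccl28 in 8. None of the 3 was called with a replicate block, and Ccl28 passed the filter because of the floxed progesterone libraries.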

How the results depend on the processing

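Of 1258 values of called members under alternatives, 1069 kept their direction and call, 189 kept their direction and lost the call, and 0 reversed. Some of these fits left out a library outside the groups compared, which changes a difference little or not at all. Cxcl16 and Cxcl14 kept their genotype calls throughout. Leaving out 1 library at a time gave 13 to 17 called members between genotypes after vehicle (12 without the 5 libraries with oviduct or squamous markers), 7 to 10 after progesterone, 5 to 9 for the floxed and 1 to 2 for the knockout hormone response, and 1 to 5 for the difference. A filter of 5 RPKM, which tests 17 members, gave 8 after vehicle, 3 after progesterone, 4 for the floxed and 1 for the knockout response. The vehicle-only batch alone gave 4 after vehicle. The knockout response called 1 member with log2(value + 0.1), no filter, quantile normalization, the mixed batch alone, without the 5 libraries with oviduct or squamous markers, and with values below 0 shifted, an alternative chosen after seeing the data; no filter also gave 1 for the difference. Weights per library, whose fit did not converge, gave 15 after progesterone, 15 for the floxed response, 13 for the knockout response and 11 for the difference. The causes were not tested. A replicate block gave 3 after progesterone, 3 for the knockout response and 0 for the difference (limma, 12 members of the difference at an unadjusted p below 0.05). Of the 3 for the knockout response, 0 were among the 2 called without the block. The labels do not say whether the numbers pair the samples. Same-numbered libraries across treatments correlated at -0.23 to 0.54 (median 0.11), against a median of -0.03 in 58 other pairs. Of 5 progesterone libraries, 1 correlated best with its own number. With 6 same-numbered pairs these correlations cannot decide whether the samples are paired. Depth limits members near 1 RPKM.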

Other observations

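Knockout progesterone 6 stood out among the 24 libraries for immune genes. The summed level of 7 neutrophil markers was 15.2 RPKM there, against 0.641, 1.35 and 2.96 RPKM in the other 3 knockout progesterone libraries and 0.722 to 2.67 RPKM in the floxed progesterone libraries. The same library held the highest values of Cx3cr1 (13.1 RPKM) and Cxcr6 (4.58 RPKM). Its Cxcl16, 21.9 RPKM, was within the range of the other knockout libraries. These values come from that library alone, and the part of immune cells in them was not tested.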
